A study of Zea mays with 10 samples.

Results

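The genes described here are abundant transcripts of the maize endosperm whose level differed little among the 6 RNA libraries of the study. They were chosen by the measured values themselves: a mean of 100 RPKM or more over the 6 libraries, and a highest value at most 2 times the lowest. RPKM is by definition the number of reads scaled to gene length and library size, so levels of different genes can be set side by side. How the deposited values were scaled between libraries was not given in the sources used here. Of 28580 gene IDs in the deposited table, 231 reached the mean of 100 RPKM and 93 of those (40.3%) also kept within the range. Of these 93, 3 genes of sucrose and starch metabolism were left out by the rule (sh1, bt1 and ae1), which leaves 90. The other 138 abundant genes exceeded the range.

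The study compared endosperm of the inbred line B73 (WT) with endosperm of B73o2, a line with the opaque-2 (o2) mutation in the B73 background, at 15 days after pollination. Both genotypes were greenhouse grown and selfed, and 3 libraries of each were made from poly(A) RNA of the dissected tissue. ChIP libraries made with an antibody against O2 were not analysed for these genes. The labels number the replicates without naming a plant or ear for any of them, so p-values measure the spread between these libraries, which may be technical.

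The Opaque-2 protein, a bZIP factor made in endosperm cells, is best known for switching on zein genes, which encode the prolamin storage proteins of the kernel. An endosperm that fills its cells with protein and starch also needs the machinery that every growing cell uses: ribosomes and elongation factors for protein synthesis, chaperones for folding, tubulin for the cytoskeleton, ubiquitin for protein turnover and glycolytic enzymes for carbon and energy. Genes of that kind are often taken as a steady background against which changes of other transcripts are read.

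The o2 transcript (GRMZM2G015534) matched the labels. It was at 112, 86.1 and 163 RPKM in WT replicates 1 to 3 and at 0.212, 0.173 and 0.254 RPKM in o2 replicates 1 to 3. The RNA libraries held 52906484 to 66795114 reads, of which 28614800 to 48169603 mapped uniquely. Multiply mapped reads made up 26.9% to 38.6% of the WT reads and 20.8% to 21.7% of the o2 reads. The deposited columns had medians of 1.56 to 1.60 RPKM, whereas their sums over all genes ran from 207265 RPKM in o2 replicate 2 to 2588140 RPKM in WT replicate 3. Steadiness is therefore relative to that deposited scale. Rescaled to the total of all genes in each library, none of the 231 genes met both thresholds.

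Names were available for 19 of the 90 genes. A further 22 matched a reference gene without a name, and 49 were unmatched and are given by their ID. Mean levels ran from 100.2 to 4312 RPKM with a median of 171, and 39 genes were at 200 RPKM or more, 12 at 500 or more and 7 at 1000 or more. The ratio of the highest to the lowest library ran from 1.14 to 1.99 with a median of 1.73. Only 3 of the 90 genes had a ratio of 1.25 or less, 13 had 1.5 or less and 48 had 1.75 or less. The choice therefore filled up towards its limit of 2 rather than gathering near 1.

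**Figure D1:**
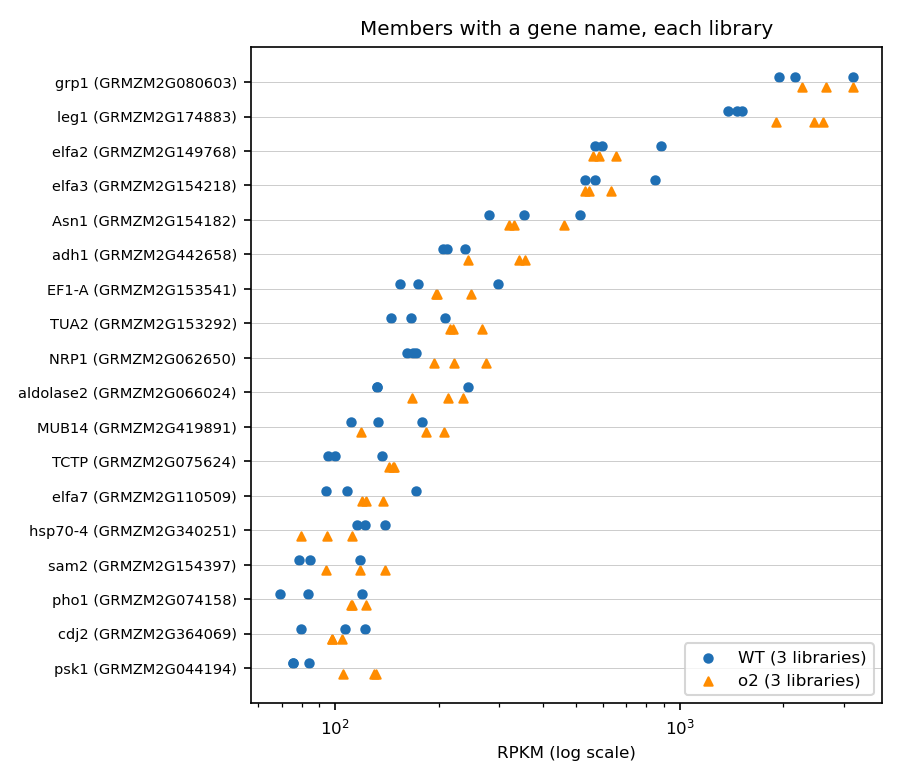
RPKM on a log axis in each of the 6 libraries for abundant steady genes with a name, ordered by mean level; circles are the 3 WT libraries and triangles the 3 o2 libraries. The circles and triangles are interleaved for most genes, whereas leg1, adh1, TUA2, NRP1, TCTP and psk1 have all o2 values above all WT values and hsp70-4 has all o2 values below.

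The highest levels belonged to a pair of IDs that kept 1 ratio in nearly every library. GRMZM5G836166, which has no name, was at 3286, 5350.1 and 3616 RPKM in WT and at 4471, 3800.3 and 5348 RPKM in o2 replicates 1 to 3. The gene named grp1 (GRMZM2G080603), the symbol of a glycine-rich protein, was at 1935, 3189 and 2156 RPKM in WT and at 2665, 2265 and 3188 RPKM in o2. In both IDs WT replicate 2 and o2 replicate 3 were the high libraries, and the genotypes overlapped. Their fitted differences, o2 minus WT on the log2(RPKM + 0.1) scale, were 0.17 (SE 0.43) and 0.18 (SE 0.39).

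The 4 translation factors among the 90 overlapped between the genotypes. The elongation factor 1-alpha genes encode the protein that delivers aminoacyl-tRNAs to the ribosome. elfa2 (GRMZM2G149768) was at 595, 883 and 568 RPKM in WT and at 655, 559 and 582 RPKM in o2. elfa3 (GRMZM2G154218) was at 569, 846 and 531 RPKM in WT and at 633, 531 and 547 RPKM in o2. WT replicate 2 was the high library of both, and the other 5 values of each lay close together. The ID named EF1-A (GRMZM2G153541) was at 174, 297 and 154 RPKM in WT and at 249, 196 and 197 RPKM in o2. The ID carrying both names elfa7 and elfa8 (GRMZM2G110509) was at 109, 172 and 94.5 RPKM in WT and at 137, 120.0 and 123 RPKM in o2. In both of these the o2 values fell inside the WT range, between WT replicate 3 and WT replicate 2. TCTP (GRMZM2G075624), the translationally controlled tumour protein found throughout eukaryotes, was at 100.3, 137 and 95.3 RPKM in WT and at 144, 148 and 148 RPKM in o2. It is on no list of translation factors. Here the o2 libraries were almost equal and all above the WT libraries, with a log2 difference of 0.42 (SE 0.22).

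Enzymes of metabolism were named as well. aldolase2 (GRMZM2G066024), a glycolytic enzyme that splits fructose bisphosphate, was at 133, 244 and 132 RPKM in WT and at 235, 212 and 167 RPKM in o2, so that WT replicate 2 lay above every o2 library and the other WT libraries below. adh1 (GRMZM2G442658), an alcohol dehydrogenase known for its use when oxygen is short, was at 205, 212 and 238 RPKM in WT and at 242, 341 and 355 RPKM in o2. Its groups did not overlap, although WT replicate 3 and o2 replicate 1 were nearly equal, and the log2 difference was 0.50 (SE 0.25). pho1 (GRMZM2G074158), the plastidial starch phosphorylase, was at 83.7, 119.8 and 69.3 RPKM in WT and at 123, 112 and 111 RPKM in o2, with WT replicate 2 inside the o2 range. sam2 (GRMZM2G154397), an S-adenosylmethionine synthetase that makes the methyl donor of the cell, was at 78.4, 118 and 84.7 RPKM in WT and at 140.1, 118 and 94.2 RPKM in o2, with overlap.

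Chaperone, cytoskeleton and ubiquitin genes gave 1 or 2 named genes each. hsp70-4 (GRMZM2G340251), an ATP-driven chaperone, was at 122, 116 and 140.0 RPKM in WT and at 112, 95.0 and 79.9 RPKM in o2. All its o2 values were below all its WT values, with a log2 difference of -0.41 (SE 0.21). cdj2 (GRMZM2G364069), a name used for J-domain co-chaperones, was at 107, 79.6 and 122 RPKM in WT and at 105, 97.9 and 97.8 RPKM in o2, with WT replicate 2 lowest. TUA2 (GRMZM2G153292), an alpha tubulin ID that also carries the name TUA1, was at 166, 208 and 146 RPKM in WT and at 266, 219.5 and 216 RPKM in o2. Its groups did not overlap, with WT replicate 2 just below the lowest o2 library. The ubiquitin gene MUB14 (GRMZM2G419891), an ID that matched 2 reference genes, was at 133, 111 and 179 RPKM in WT and at 184, 119 and 207 RPKM in o2, with the second library of each genotype lowest.

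Among the remaining named genes, the legumin gene leg1 was the only storage protein. It encodes an 11S-type globulin, a class apart from the zeins. leg1 (GRMZM2G174883) was at 1382, 1471 and 1516 RPKM in WT and at 1899.7, 2459 and 2598 RPKM in o2. The WT libraries were close together and every o2 library was higher, with an o2 over WT ratio of mean RPKM of 1.59 and a log2 difference of 0.66 (SE 0.33). psk1 (GRMZM2G044194), a precursor of the peptide hormone phytosulfokine, was at 75.8, 75.4 and 84.1 RPKM in WT and at 129.9, 106 and 131 RPKM in o2. Its o2 values were all higher, with a ratio of 1.56 and a log2 difference of 0.63 (SE 0.19). NRP1 (GRMZM2G062650), a NAM-related protein whose gene is known to be imprinted in maize endosperm, was at 162, 172 and 169 RPKM in WT and at 275, 193 and 221 RPKM in o2. The 3 WT libraries were nearly equal and all o2 libraries were above them, with a log2 difference of 0.44 (SE 0.23). GRMZM2G154182 carries the unrelated names Asn1 and nac4, so no role is given to it. It was at 353, 279 and 514 RPKM in WT and at 330.1, 319 and 462 RPKM in o2, with the third library of each genotype highest.

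The comparison of genotypes over the 90 genes is a description, because the range rule used the same 6 values and kept out any gene with a large difference. Of 18687 genes tested with limma on log2(RPKM + 0.1), 3.56% passed an adjusted p of 0.05 (Benjamini-Hochberg), 2.07% as lower and 1.49% as higher in o2, and 0 of the 90 were called. Nothing is read from that 0. Under quantile normalization 8 of the 90 were called, and rescaled to the total of all genes 90 were, all of them higher in o2. At an unadjusted p under 0.05, 2 of the 90 passed, psk1 and GRMZM5G899097, against 19.2% of all tested genes, and the lowest adjusted p of the 90 in this limma fit was 0.137, for psk1. The median log2 difference, o2 minus WT, was 0.02 over the 90 and 0.05 over all tested genes. Ratios of mean RPKM, o2 over WT, ran from 0.702 to 1.69 with a median of 0.990. They were below 1 in 51 genes and above 1 in 39, and 38 genes were within 10% of 1. A ratio of 1.25 or more was found in 15 genes and of 0.8 or less in 8.

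The limits of precision are wide enough that these values do not show a gene to be independent of O2. The median SE of the log2 difference was 0.27 and its 95% interval reached, in the median, 0.65 to either side. The interval lay within -1 to 1 in 74 of the 90 genes and within -0.5 to 0.5 in 1 gene. The ratio between genotype means was smaller than the range within the WT libraries in 70 genes, smaller than the range within the o2 libraries in 73, and smaller than both in 61. These are unlike measures, since a range of single libraries tends to exceed a ratio of means, so the counts are descriptions only. In RNA from whole dissected endosperm, fewer cells of a type and less RNA per cell cannot be told apart.

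**Figure D2:**
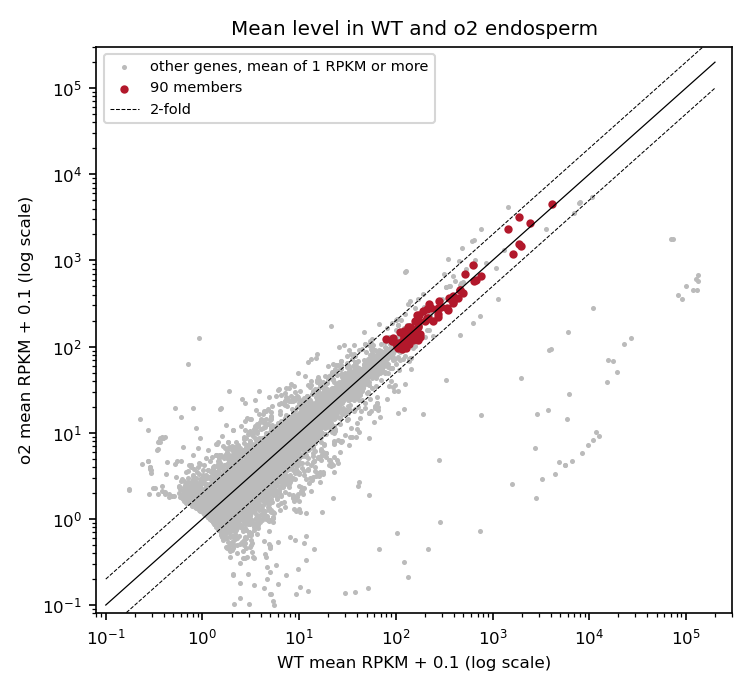
Mean RPKM + 0.1 in o2 (vertical, log scale) against WT (horizontal, log scale) for genes with a mean of 1 RPKM or more; red points are the 90 abundant steady genes, grey points the other genes, the solid line equality and the dashed lines a ratio of 2. The red points run along the line from about 100 to 4312 RPKM, while many grey points of the same or higher WT level lie far below it and others lie near or above it.

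The values of the 2 genotypes did not overlap in 16 of the 90 genes. All o2 libraries were above all WT libraries in 10 genes, against 14.4% of all tested genes, and below in 6 genes, against 11.7%. The largest ratio was that of GRMZM2G478516, which was at 1798, 1903 and 1971 RPKM in WT and at 2697, 3347 and 3526 RPKM in o2. It was followed by leg1, psk1, adh1 and GRMZM2G455793, with ratios of 1.69, 1.59, 1.56, 1.43 and 1.41 in that order. GRMZM2G455793 was at 599, 759 and 513 RPKM in WT and at 996, 809 and 826 RPKM in o2, without overlap.

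At the other end, the lowest ratio of o2 to WT was that of GRMZM5G899097, at 166, 153 and 188 RPKM in WT and at 136, 115 and 106 RPKM in o2, a log2 difference of -0.51 (SE 0.21). GRMZM2G090962 was at 1394, 1841 and 1692 RPKM in WT and at 1036, 1177 and 1356 RPKM in o2. GRMZM2G122871 was at 159, 169.7 and 199 RPKM in WT and at 148, 127 and 116 RPKM in o2. The groups did not overlap in these 3 genes, whose ratios were 0.702, 0.725 and 0.740. GRMZM2G090974, with a ratio of 0.758, was at 1687, 2144 and 2036 RPKM in WT and at 1408, 1305 and 1734 RPKM in o2, and overlapped through WT replicate 1 and o2 replicate 3. hsp70-4, described above, had the fifth lowest ratio, 0.760.

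The 6 steadiest genes of the 90 had no name. GRMZM2G031545 was at 274, 269 and 285 RPKM in WT and at 302, 275 and 265 RPKM in o2, the narrowest range of all at 1.14. GRMZM2G102471 was at 116, 116 and 116 RPKM in WT and at 114, 127 and 102 RPKM in o2. Its WT libraries were equal to 3 digits, and its range of 1.25 came from o2 replicates 2 and 3. GRMZM2G085449 also had a range of 1.25, and GRMZM2G030016, GRMZM2G102829 and GRMZM2G576271 had 1.27, 1.28 and 1.36. GRMZM2G102829 was at 112, 138 and 115 RPKM in WT and at 143, 121 and 139 RPKM in o2, and GRMZM2G576271 at 163, 169 and 175 and at 196, 162 and 222 RPKM. Even these genes had 95% intervals for the log2 difference that reached 0.42 to 0.70 on the higher side.

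Other unnamed genes stood among the 12 highest. GRMZM5G866841 was at 1625, 2385 and 1579 RPKM in WT and at 1707, 1494 and 1488 RPKM in o2, high in WT replicate 2 alone. GRMZM2G001327 was at 673, 988 and 631 RPKM in WT and at 733, 622 and 644 RPKM in o2, the same order of libraries as elfa2. GRMZM2G455799 was at 506, 619.6 and 429.9 RPKM in WT and at 832, 658 and 612 RPKM in o2, so that WT replicate 2 lay just above the lowest o2 library. The 71 unnamed genes as a whole covered the full span of levels, from 100.2 to 4312 RPKM.

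Values close to the limits show how sharply the choice was drawn. Just inside the range limit were GRMZM2G455793, GRMZM2G478516 and GRMZM2G134797, with ratios of highest to lowest of 1.94, 1.96 and 1.99. Just outside were GRMZM2G504655, GRMZM2G099657 and GRMZM2G052869, at 2.00, 2.00 and 2.01. The first of these was at 597, 715 and 657 RPKM in WT and at 905, 969 and 1196 RPKM in o2. Just above the limit on the mean were GRMZM2G111172, psk1 and cdj2 with means of 100.2, 100.4 and 102 RPKM. Below it came GRMZM2G177720 and GRMZM5G892124, each with a mean of 99.7 RPKM, and AC196156.3_FG003 with 97.4 RPKM.

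The libraries were not alike in these genes. WT replicate 2 held the highest of the 6 values in 52 of the 90 genes, and WT replicate 3 held the lowest in 41. WT replicate 1 held the highest value in 0 genes. The median of the log2 values centred on each gene's own mean was 0.34 in WT replicate 2, -0.17 in WT replicate 1 and -0.21 in WT replicate 3. In the o2 libraries it was 0.12, -0.16 and -0.00 for replicates 1 to 3. Over all tested genes the same medians lay between -0.04 and 0.04, so the shift of WT replicate 2 was larger in the abundant steady genes than in the table as a whole. It was not particular to the 90. Of the glycolysis genes outside them, eno1 (GRMZM2G064302), at 227, 1006 and 200 RPKM in WT, and ald1 (GRMZM2G057823) were also highest in WT replicate 2. MUB3 (GRMZM2G409726) and Hsp70 (GRMZM2G310431), also outside the 90, went the other way, with WT replicate 2 the lowest WT library. Most storage protein genes outside the 90 that reached 100 RPKM also had WT replicate 2 lowest in WT. Among them was z1A1_7 (GRMZM2G353268), at 98184.5, 38114 and 216738 RPKM in WT. Of the starch and sucrose genes, wx1 (GRMZM2G024993) was lowest there, at 1493, 632 and 1862 RPKM in WT. In sh1 WT replicate 2 was the highest WT library.

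**Figure D3:**
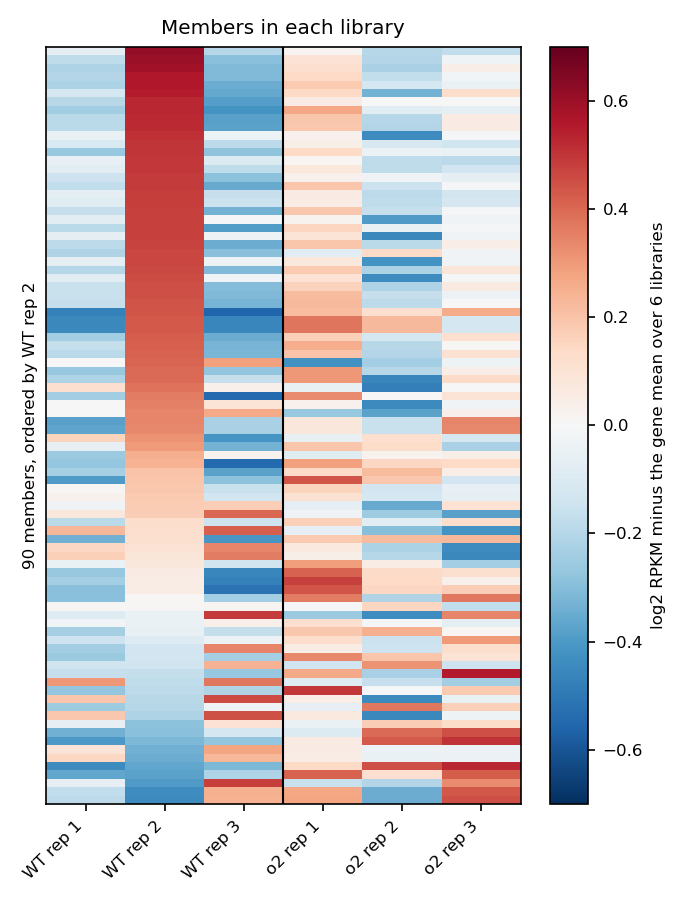
Log2 RPKM minus the gene's mean over the 6 libraries (color) for the 90 abundant steady genes, 1 row each, in the 3 WT and 3 o2 libraries, ordered by the value in WT replicate 2. Most rows are high in WT replicate 2 and low in WT replicates 1 and 3, and the o2 columns are paler.

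Within a genotype the order was just as uneven. WT replicate 2 was the highest WT library in 72.2% of the 90 genes, against 42.2% of all tested genes, and WT replicate 3 the lowest in 52.2%, against 36.8%. Among the o2 libraries, replicate 1 was highest in 67.8%, against 34.4%, and replicate 2 lowest in 62.2%, against 35.1%. The WT libraries spread more than the o2 libraries: the median coefficient of variation was 22.7% in WT and 13.5% in o2, and the range of highest to lowest was larger within WT in 61 genes. With WT replicate 2 left out, the highest of the 5 remaining values was that of o2 replicate 1 in 51 genes, and the median log2 difference of the 90 was 0.23 in place of 0.02.

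Markers of other kernel tissues also differed among the libraries. The summed RPKM of 2 embryo markers, ole1 and glb1, was 32.0, 104 and 57.5 in WT and 19.5, 16.2 and 3.21 in o2, highest in WT replicate 2. The 1 embryo-surrounding marker found, ESR1, was at 0.317, 9.57 and 0.328 RPKM in WT and at 0.970, 6.60 and 0.680 RPKM in o2. The summed RPKM of 8 basal transfer layer markers was 187, 78.1 and 4.28 in WT and 54.3, 173 and 24.6 in o2, with the lowest value in WT replicate 3. That of 3 aleurone markers was 20.9, 22.7 and 10.5 in WT and 22.5, 21.9 and 23.7 in o2. Most of it came from Nkd1, at 18.9, 20.6 and 8.10 RPKM in WT and at 20.9, 19.7 and 22.2 RPKM in o2. The other aleurone markers, both low, did not share its pattern. Among the WT libraries dek1 was highest in replicate 3, and vp1 was lower in every o2 library than in every WT library. Starchy endosperm markers, 7 in all, summed to 6503, 2940 and 14391 RPKM in WT and to 2494, 2785 and 3759 RPKM in o2. The labelled tissue was therefore clearly present. FL2 and o2 itself are part of the sum, and both were lower in every o2 library than in every WT library. FL2 was its largest part in each WT library, at 4047, 1485 and 11377 RPKM. In contrast, bt2, sh2 and the pbf1 ID GRMZM2G146283 were higher in every o2 library than in every WT library. For bt2 the values were 459, 381 and 497 RPKM in WT and 997, 995 and 975 RPKM in o2. Both wx1 and the other pbf1 ID overlapped between the genotypes. No marker is among the 90 genes, no green tissue marker was found, and the part of these markers in the spread of the 90 was not tested.

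Summed over the 90 genes, the level was 29648, 40397 and 31157 RPKM in WT and 36133, 32758 and 37729 RPKM in o2. Over 3 libraries each, the WT sum averaged 33734 ± 5819 (SD) and the o2 sum 35540.1 ± 2538 (SD) RPKM, a ratio of 1.05, and the groups overlapped. As a share of all RPKM in the library, however, the same genes made up 2.25%, 5.80% and 1.20% in WT and 17.4%, 15.8% and 14.2% in o2. These shares averaged 3.08% ± 2.41 (SD, n = 3) for WT against 15.8% ± 1.57 (SD, n = 3) for o2, without overlap. With the other abundant genes, the zeins among them, taken out of the total, it came to 21.2%, 24.1% and 21.0% in WT and 22.7%, 21.6% and 23.1% in o2. On that base the averages were 22.1% ± 1.74 (SD, n = 3) for WT and 22.4% ± 0.758 (SD, n = 3) for o2, which overlapped.

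Steady genes were less common among abundant genes than among moderately expressed ones. A range of at most 2 was kept by 69.0% of 9414 genes with a mean of 1 to 3 RPKM, 72.1% of 6207 genes at 3 to 10 RPKM and 68.1% of 1936 genes at 10 to 30 RPKM. It was kept by 54.4% of 667 genes at 30 to 100 RPKM and 52.0% of 127 genes at 100 to 300 RPKM. At 300 RPKM or more it was kept by 26.0% of 104 genes. The percentage called in limma was 2.87% to 6.30% in the first 5 of these classes and 37.5% in the last. These shares are descriptions over genes, which are not independent replicates.

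**Figure D4:**
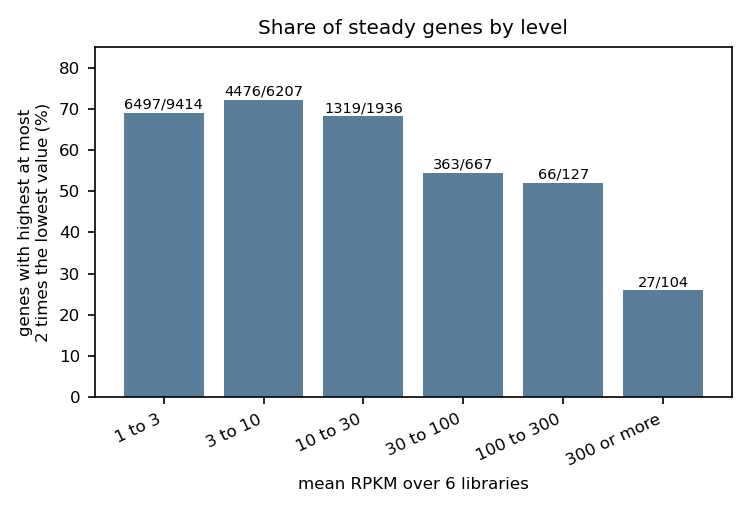
Percentage of genes whose highest RPKM was at most 2 times the lowest over 6 libraries (vertical), in classes of mean RPKM (horizontal); the number of such genes and of all genes in the class stands above each bar. The bars stay near 70% up to 30 RPKM and reach 26.0% at 300 RPKM or more.

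The 138 abundant genes outside the range differed within genotypes as well as between them. Their median ratio of highest to lowest was 5.06 over the 6 libraries, 2.63 within WT and 1.75 within o2. Of the 138, 44 were called lower in o2 and 3 higher, against 2.07% and 1.49% of all tested genes. The range rule used the same 6 values and placed genes with a large difference among the 138. Their ranges and calls are therefore a description, and nothing is read from them. A range of at most 2 was kept by 83 of them within the o2 libraries, by 29 within WT and by 22 within both. For the 90 genes the medians were 1.52 within WT and 1.31 within o2, as the rule requires them to be below 2.

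Many of the 90 IDs ran in parallel. Sets were formed by linking IDs whose centred log2 values differed by at most 0.05 in every library. This joined 34 of the 90 IDs (37.8%) into 11 sets of 2 to 6 IDs, through 32 of 4005 pairs (0.799%). Among 363 genes of 30 to 100 RPKM with the same limit on range, 89 IDs (24.5%) formed 38 sets, through 59 of 65703 pairs (0.0898%). GRMZM5G836166 was 1.68 times the level of grp1 in 5 libraries and 1.70 times in WT replicate 1. GRMZM2G066503, at 219.9, 405 and 219 RPKM in WT and 389.8, 352 and 276 RPKM in o2, was 1.66 times the level of aldolase2 in every library. GRMZM2G419936 was 1.62 to 1.65 times the level of MUB14, and GRMZM5G817178 2.75 to 2.84 times that of hsp70-4.

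Elongation factor genes took part in such sets too. GRMZM2G001327 was 1.11 to 1.13 times the level of elfa2 and 1.16 to 1.19 times that of elfa3. Sets of 5 and 6 unnamed IDs were led by GRMZM2G033647, with a mean of 463 RPKM, and GRMZM2G110316, with a mean of 288 RPKM. Whether members of a set are near-identical copies, overlapping models that share reads or separate genes was not tested, so values of single IDs in these sets are uncertain and the 90 IDs may stand for fewer genes.

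**Figure D5:**
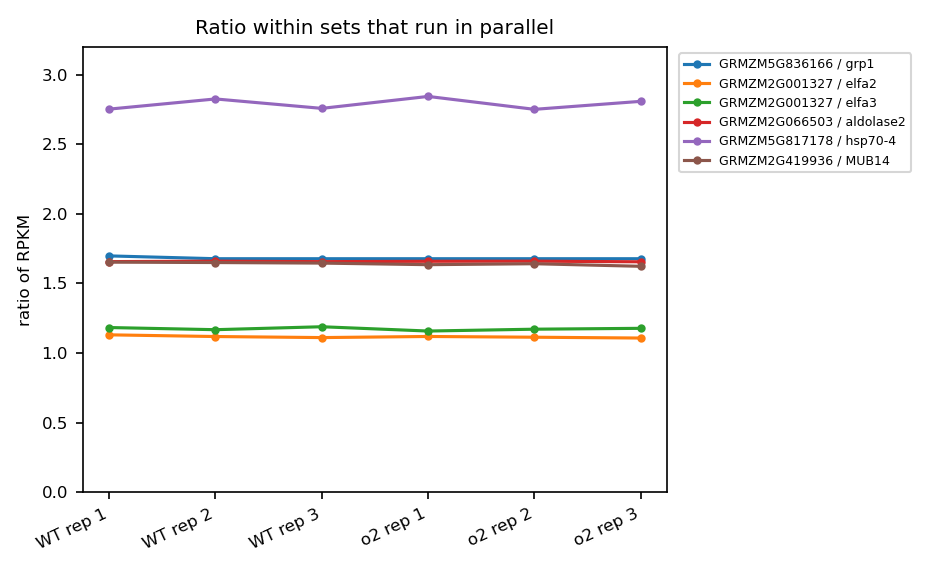
Ratio of RPKM (vertical) between 2 IDs of the same parallel set in each of the 6 libraries (horizontal), for sets that hold a named gene of the text; 1 line is 1 pair. The lines are nearly flat, at 1.68 to 1.70 for GRMZM5G836166 over grp1 and 2.75 to 2.84 for GRMZM5G817178 over hsp70-4.

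Lists of genes by function, drawn up from gene symbols, place the named genes among their relatives. Of 14 tested translation factors, 13 had a range of at most 2, and 4 reached 100 RPKM, all of them among the 90. Of 36 tested cytosolic ribosomal protein genes, 25 (69.4%) had a range of at most 2, close to the 69.0% of all tested genes. No gene of either list was called in limma, at medians of the log2 difference of 0.08 in both. Of 19 cytoskeleton genes 14 had a range of at most 2, with 0 called. Of 8 genes for 14-3-3 proteins and small GTPases 7 had such a range, and the gene outside it, rop9 (GRMZM5G803949), was the 1 called, higher in o2.

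Other housekeeping lists were less steady. None of 12 tested histone genes had a range of at most 2, their median range was 4.34, their median log2 difference was 0.67 and 0 were called. Of 16 glycolysis genes 6 had a range of at most 2, and of the 6 that reached 100 RPKM aldolase2 alone is among the 90. Its relative ald1 (GRMZM2G057823) was at 258, 626 and 213 RPKM in WT and at 600.4, 583 and 344 RPKM in o2, a range of 2.94 with WT replicate 2 highest. Of 32 chaperone genes 11 had a range of at most 2, 5 reached 100 RPKM and 2 are among the 90, hsp70-4 and cdj2; 1 was called lower. A further gene named Hsp70 (GRMZM2G310431) was at 118, 78.9 and 271 RPKM in WT and at 94.2, 166 and 42.4 RPKM in o2, a range of 6.39.

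The remaining lists contributed few of the 90 genes. Of 3 ubiquitin genes 2 had a range of at most 2, MUB14 and MUB6 (GRMZM2G118637), the latter with a mean of 51.8 RPKM. The third, MUB3 (GRMZM2G409726), was at 262, 159 and 419.6 RPKM in WT and at 299.8, 254 and 344 RPKM in o2, again with the second library of each genotype lowest. Of 17 tested starch and sucrose genes 7 had a range of at most 2 and 7 reached 100 RPKM. Of these, pho1 is among the 90, while sh1, bt1 and ae1 also met both thresholds but were left out by the rule. In this list 2 genes were called lower and 1 higher. Of 31 storage protein genes 27 reached 100 RPKM and 24 were called lower, while leg1 alone had a range of at most 2. The list's median log2 difference was -8.45, against 0.66 (SE 0.33) for leg1.

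The last 3 lists held none of the 90. Of 8 mitochondrial energy genes 3 had a range of at most 2 and 0 were called. Of 20 redox enzyme genes 5 had such a range, with 1 called lower and 1 higher. Of 3 aquaporin genes 0 had it and 0 were called.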

How the data were processed

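Levels were deposited by the authors as RPKM, 1 column per RNA library. Mapped reads were deposited as counts per library and mapping class. Per the submitters' processing notes, the build was B73 RefGen_v3 and the tools were edgeR 3.2.4, TopHat2 2.0.9, MACS2 2.1.0.20140616, Bowtie2 2.1.0, Trimmomatic and bedtools 2.17.0. How genes were counted, by strand or not, and how RPKM was scaled was not given in the sources used here. No count test was run, since RPKM values are not counts.

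Genes with 1 RPKM or more in at least 3 of 6 libraries were kept, and log2(RPKM + 0.1) was fitted with lmFit and trended eBayes (limma 3.58.1, R 4.3.3), genotype being the only term. The Benjamini-Hochberg adjustment ran over all 18687 tested genes. A difference on this scale understates the change of low genes. The fit was tested on simulated data. Other steps used Python 3.11.15, pandas 2.3.3 and networkx 3.6.1. Alternatives covered the pseudocount, filter, scaling, variance trend, replicate block, left-out libraries and the thresholds of the choice.

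The genes, lists and rules were chosen with earlier results of these data known. The 9 IDs left out by the rule were kept out of the 90. The rule for named genes took the 12 highest means, the 6 narrowest ranges, the 5 highest and 5 lowest ratios, the 3 genes on each side of each threshold, the 3 highest of each list with genes among the 90, and all of the 90 with a symbol. Of the list genes outside the 90, most are not named in the text, and 1 gene and its parallel set are not reported here. The genes ald1 and rop9 were named after their values were seen. Names came from a RefSeq gene table for Zm-B73-REFERENCE-NAM-5.0, which supplied nothing else and matched 12658 of 28580 IDs. It holds no product words, so lists rest on symbol stems. Further stems were added and false symbol matches were taken out once the names were seen, by name and not by value. A planned list of defence proteins was not formed. Promoter motifs and protein features were not analysed here, and the peak list was not linked to genes.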

Additional observations from a re-analysis of the deposited data

How the results depend on the processing

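The steadiness of the 90 genes rests on the deposited scale. Rescaled to the total of all genes, 0 genes met both thresholds, 90 of the 90 were called higher, their median log2 difference was 2.59 against 2.54 over all tested genes, their summed ratio was 5.13, and 18275 of all tested genes were called (90 lower, 18185 higher). Under quantile normalization 52 genes met the thresholds, 44 of them among the 90; 8 of the 90 were called, all higher, among them grp1 and leg1, and their median difference was 0.51. Rescaled to the total without the 100 highest genes, or to the upper quartile, 99 and 98 genes met the thresholds, 88 and 90 of them among the 90, and the median difference was -0.03 under both.

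Over all tested genes the 666 calls became 1051 with no filter, 395 with 1 RPKM required in all 6 libraries, 340 with the replicate block and 299 without the third library of both genotypes. With 1 library left out at a time, they ranged from 98 (without o2 replicate 2) to 777 (without WT replicate 2), with 160 without WT replicate 1, 290 without o2 replicate 1 and 253 without o2 replicate 3. The number of genes meeting the rule was 13 with a range of at most 1.5, 237 with a mean of 50 RPKM or more and 39 with 200 or more; with a range of at most 3, 2 genes were called. Leaving out 1 library gave 86 to 108 genes, 0 called, median differences of -0.10 to 0.23 and summed ratios of 0.993 to 1.17. The genes at an unadjusted p under 0.05 numbered 2 as reported, 12 without the variance trend, 13 without WT replicate 2, 40 under quantile normalization, 90 rescaled to the total of all genes and 0 to 2 under the other alternatives.

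Whether same-numbered libraries pair was not settled by these values. Their correlations of deviations were -0.02, 0.06 and 0.32 over all tested genes, and only the third libraries correlated best with their own number. With the block 0 of the 90 were called. Apart from the rescalings named as such, the causes of these shifts were not tested. With 3 libraries a group, the 95% intervals given were wide, and true differences anywhere inside them remain compatible with the values.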
